A study of Mus musculus with 81 samples.

Results

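KYOT2 is a LIM-domain protein made from the gene Fhl1 that binds RBPJ, the transcription factor of the Notch pathway, and the libraries described here compare its wild-type form with WWAA, a mutant that is defective in RBPJ binding per the labels. The groups were taken by their labels: 3 RNA libraries of cells with GFP-KYOT2 wild type and 3 of cells with GFP-KYOT2 WWAA, 6 of the 81 samples of the series, with 3 libraries of cells with GFP alone as the control of the same experiment. All 9 came from a mouse hybridoma mature T cell line, a T cell fused with a tumour cell so that it grows without end, infected with plasmids that encode the fusion proteins or GFP. No allele, treatment or time distinguishes the groups beyond the plasmid in the labels, the cells keep their own RBPJ, and the labels do not say which promoter drives the constructs or whether replicates are separate cultures, so p-values measure the spread between these libraries. The genes that differed were then looked up in 2 experiments with other libraries of the same cell type. In the first, cells edited by CRISPR against Rbpj (sgRbpj) or their control (Control_sgRbpj) carried the vector Biocontrol or BioNICD1, a Notch1 intracellular domain, with 3 libraries in each of 4 groups. In the other, the edited lines 2-12 and 2-14 were compared with their control, with 2 libraries each.

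RBPJ sits on DNA with or without Notch. Without Notch it recruits corepressors, among them SPEN (also called SHARP or MINT), L3MBTL3 and KYOT2, and target genes stay low. When Notch is cleaved, its intracellular domain enters the nucleus, binds RBPJ in place of the corepressors and switches targets such as Hes1 on. KYOT2 and the Notch intracellular domain bind RBPJ at overlapping surfaces. In T cells Notch signals drive lineage commitment in the thymus and are active again in mature cells.

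The KYOT2 libraries held 9401514 to 14244209 counts over 24391 genes. The ribosomal transcript Rn45s took 1.81 to 4.18% of the counts with wild type, 2.04 to 3.40% with WWAA and 2.23 to 5.56% with GFP. In each of the 3 groups, the replicate 3 library stood apart from replicates 1 and 2: a chi-square per gene, which is near 1 for sampling noise alone, was 14.2 to 28.2 for pairs with replicate 3 and 2 to 7.08 for the other pairs. Counts of calls are therefore also given without the 3 libraries of replicate 3, an alternative chosen after seeing the data. Of 25 T cell receptor and identity genes 19 reached 1 CPM (counts scaled to the library total and by TMM factors), and the co-receptors Cd4 and Cd8a were too low to test. The B cell markers Ms4a1, Pax5, Blk and Vpreb1 were at 0 in all 9 libraries, the B cell marker list summed to at most 0.279 CPM, and of 12 myeloid markers 1 reached 1 CPM, Cd68, a lysosomal protein (14.8 CPM). Summed marker levels were 16.3 to 18.4 CPM with wild type and 11.9 to 16.0 CPM with WWAA for myeloid markers (nearly all Cd68), 2.79 to 4.22 and 3.20 to 4.34 CPM for erythroid markers, and 1.95 to 2.87 and 2.08 to 3.18 CPM for fibroblast and stromal markers. The 1 tested member of each, Cd68 (0.29 on the log2 scale), Alas2 (0.27) and Acta2 (-0.06), did not pass between wild type and WWAA.

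Both constructs were transcribed, and the wild type more than the mutant. Fhl1 stood at 0, 0.442 and 0 CPM in the 3 GFP libraries, at 1050, 1096 and 1134 CPM with wild type and at 705.5, 698 and 655 CPM with WWAA. The wild-type libraries all lay above the WWAA libraries, by 0.67 on the log2 scale (SE 0.0787, adjusted p = 0.000393, edgeR quasi-likelihood test), which is 1.59-fold. Reads of the plasmid and of the cells' own Fhl1 cannot be told apart in counts per gene. The higher level of the wild-type transcript goes with the group, so the level and the mutation cannot be told apart in any difference below. No other member of the LIM-only and FHL family list passed (1 of 6 tested, Fhl1 itself).

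Rbpj itself, which the cells keep, was measured at 181, 179 and 191 CPM with wild type, at 144, 140 and 164 CPM with WWAA and at 140.1, 139.5 and 142 CPM with GFP. The wild-type libraries lay above all others, and 1 WWAA library, replicate 3, lay above the rest of its group. The difference was 0.30 on the log2 scale (SE 0.0592, adjusted p = 0.0193). It did not pass without any 1 of 5 libraries, wild type replicates 1, 2 and 3 and WWAA replicates 1 and 2 (log2 0.25 to 0.37 over all libraries left out in turn, highest adjusted p = 0.101).

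**Figure D1:**
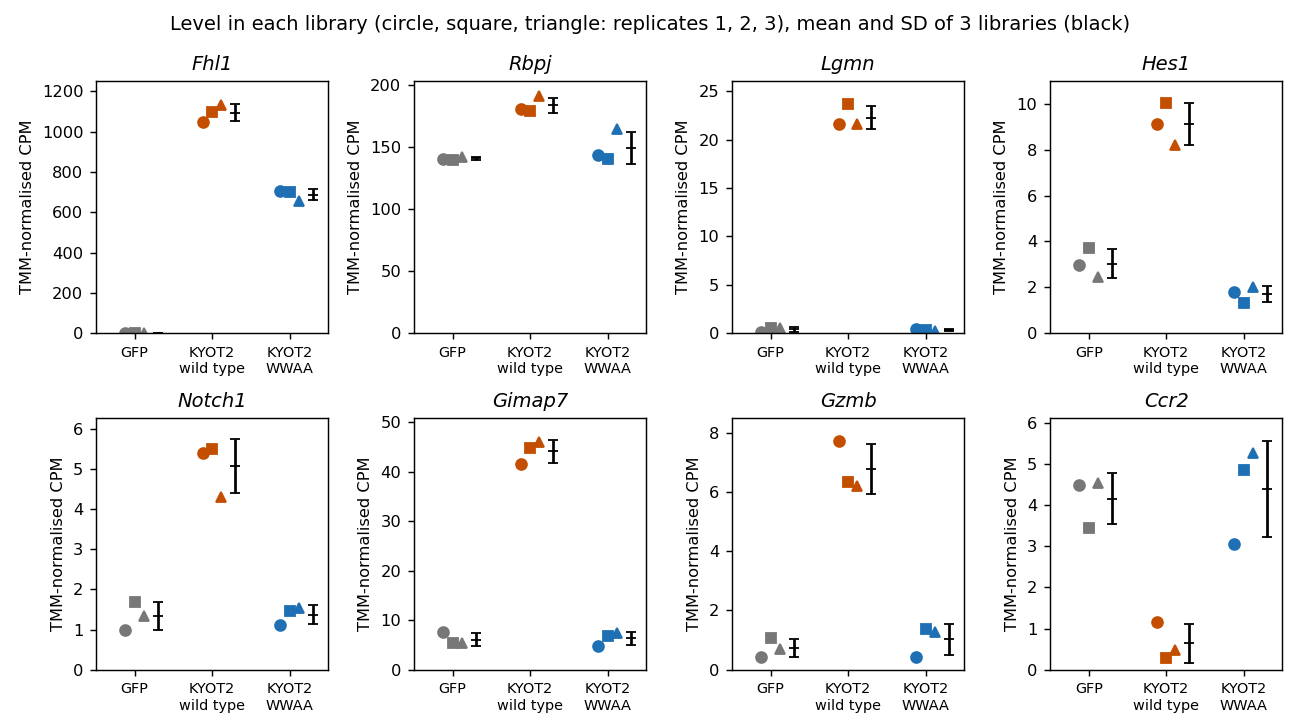
Level of 8 genes in every library, in TMM-normalised CPM on linear axes from 0, for GFP, KYOT2 wild type and KYOT2 WWAA; circles, squares and triangles are replicates 1, 2 and 3, and the black bar is the mean with its SD over 3 libraries. Lgmn stands at 21.6 to 23.6 CPM with wild type and below 1 CPM in all 6 other libraries, while Fhl1 is high with both constructs.

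Across all genes the wild type and the mutant differed at few genes, and most differences of 2-fold or more were increases with the wild type. Of 11150 genes tested, 141 (1.26%) were higher with wild type and 67 (0.601%) were lower, 208 (1.87%) in all. The 141 include Fhl1, the gene of the construct. The higher genes had a median difference of 0.48 on the log2 scale (1.40-fold), and 19 of them reached 2-fold. The lower genes had a median of -0.28 (1.22-fold), 2 of them, Ccr2 and Ly6c2, reached 2-fold, and 64 of 67 were under 1.5-fold. In all 208 the wild-type and WWAA libraries did not overlap, against 19.3% of all genes tested. The same libraries picked the 208, so this contrast is no separate result. With the replicate number as a block 567 genes were called, 310 higher (54.7%, against 67.8% without the block) and 257 lower, with all 208 among them; without the replicate 3 libraries 629 were called, 343 higher and 286 lower, with 198 of the 208 among them. Leaving out 1 library, the count fell to 79 without wild type replicate 2, 92 without wild type replicate 1 and 98 without WWAA replicate 2. It fell to 113 without WWAA replicate 1 and to 134 without wild type replicate 3. All 208 genes kept their sign in each of these fits, but their libraries did not overlap, so this is no separate result either.

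**Figure D2:**
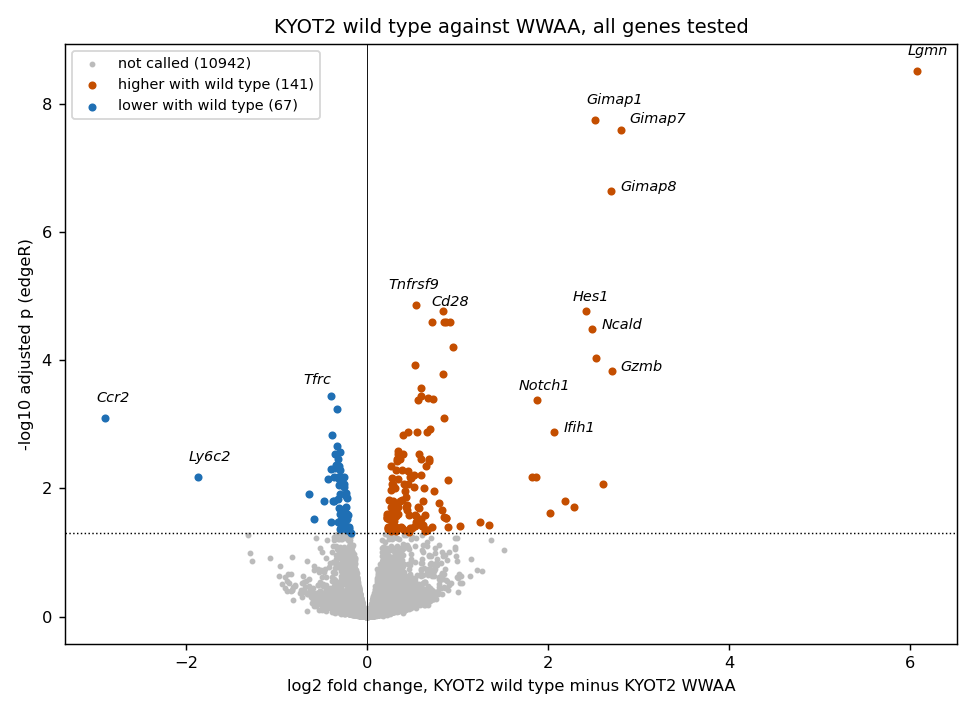
Log2 fold change of KYOT2 wild type minus KYOT2 WWAA (x axis) against -log10 of the edgeR adjusted p (y axis) for the 11150 genes tested; the dotted line is the threshold of 0.05. Of the called genes, 141 lie to the right and 67 to the left, and the genes farthest to the right include Lgmn, Gimap7, Gzmb, Gimap8, Gimap1, Ncald and Hes1.

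Set against GFP, more genes were called with the wild type than with WWAA. With wild type 90 genes (0.807%) were higher than with GFP and 9 (0.0807%) were lower, while with WWAA 8 (0.0717%) were higher and 2 (0.0179%) lower. Fhl1, the gene of the construct, is among the 90 and among the 8. The 3 contrasts share libraries, so their values are set side by side and no overlap is read from them. For Lgmn the log2 difference from GFP was 5.80 with wild type and -0.28 with WWAA (adjusted p = 0.931). For Gimap7 it was 2.89 and 0.09, for Ncald 2.05 and -0.45, and for Notch1 1.90 and 0.02; none of the WWAA values passed. Hes1 was 1.59 above GFP with wild type, and its WWAA value, -0.83, did not pass (adjusted p = 0.383), although all 3 WWAA libraries lay below all 3 GFP libraries. For the 141 genes higher with wild type than with WWAA, the median difference from GFP was 0.38 with wild type and -0.08 with WWAA. For the 67 lower genes it was -0.16 and 0.13, so these lay on both sides of GFP. Both sets were picked with the same libraries, so their medians are a description only. The counts against GFP depend on the fit: for WWAA it was 22 by DESeq2, 67 with the replicate block, 6 without GFP replicate 2, 18 without WWAA replicate 3 and 279 without all replicate 3 libraries. The wild-type count against GFP was 320 with the block and 465 without the replicate 3 libraries, 239 without WWAA replicate 3 alone, and between 50 (without GFP replicate 2) and 65 without any 1 of the GFP or wild-type libraries.

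**Figure D3:**
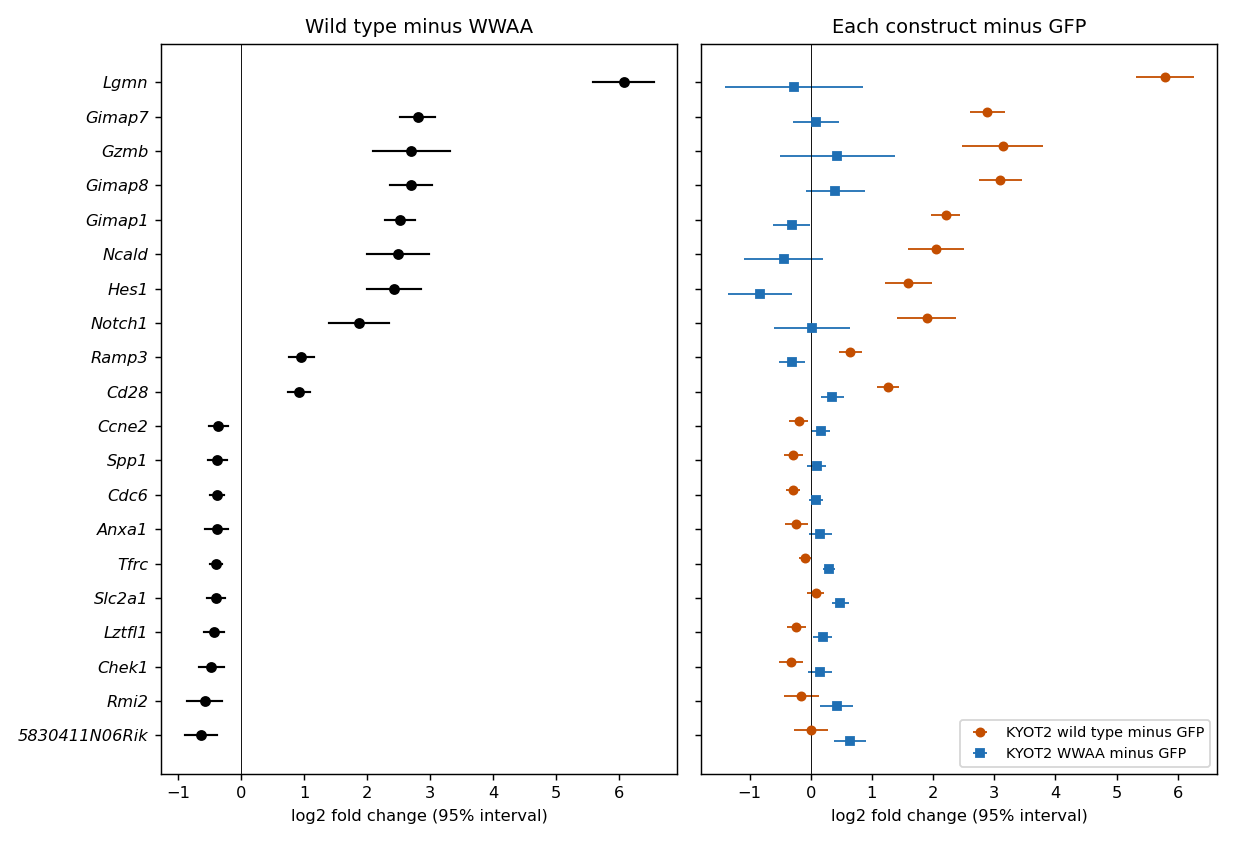
Log2 fold change with its 95% interval for the 20 named genes with the largest differences, as wild type minus WWAA (left) and as each construct minus GFP (right). For the upper 10 genes the wild-type points lie to the right of 0 and of the WWAA points, which run from -0.83 (Hes1) to 0.44 (Gzmb); for the lower 10 genes the differences are under 0.65 in size, and for Slc2a1, Tfrc, Rmi2 and 5830411N06Rik it is the WWAA point that lies away from 0.

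Of the genes listed as Notch targets, 4 of the 10 tested rose with the wild type, against 1.26% of all genes tested. The list, which holds Lgmn, was chosen with earlier results of these data known, so this count is a description only. Lgmn, a lysosomal protease that cuts after asparagine, stood at 21.6, 23.6 and 21.6 CPM with wild type, 0.426, 0.346 and 0.182 CPM with WWAA, and 0.109, 0.531 and 0.471 CPM with GFP. It was the largest difference of all genes tested, at 6.07 on the log2 scale (SE 0.225, adjusted p = 3.05e-09). WWAA and GFP overlapped, and both lay far below the wild type. The fold rests on the low counts there, and it ranged from 5.82 to 6.33 over the 9 fits that leave out 1 library.

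Hes1, a transcriptional repressor and the best known Notch target, was at 9.11, 10.04 and 8.20 CPM with wild type, 1.79, 1.30 and 2.00 CPM with WWAA and 2.95, 3.72 and 2.43 CPM with GFP. The wild-type libraries lay above all others, by 2.42 over WWAA (SE 0.199, adjusted p = 1.7e-05). Notch1, the receptor gene itself, was at 5.40, 5.51 and 4.30 CPM with wild type, 1.11, 1.47 and 1.55 CPM with WWAA and 0.984, 1.68 and 1.33 CPM with GFP. Again the wild type stood alone, by 1.88 over WWAA (SE 0.223, adjusted p = 0.000408). Cdkn1a, the cell-cycle inhibitor p21, was higher by 0.34 (adjusted p = 0.00263), with 62.5, 62.8 and 64.3 CPM against 50.9, 50.02 and 48.8 CPM.

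Of 19 Notch target genes listed, 10 were tested, 4 rose (Lgmn, Hes1, Notch1 and Cdkn1a) and none fell. Over all genes tested 1.26% rose and 0.601% fell. The list had a median difference of 0.17 against 0.0001 for all genes tested. That median was 0.0735 without WWAA replicate 3, 0.0811 without wild type replicate 1, 0.0971 without all replicate 3 libraries, up to 0.23 without another library and 0.28 with no filter on low counts. Of the list, 4 members passed in each of the fits that left libraries out. The other 6, Gata3, Ptcra, Tcf7, Myc, Bcl11b and Ccnd1, ran from -0.09 to 0.22 and did not pass. Myc, a growth regulator and a Notch target in thymus-derived leukaemias, was at 147 to 158 CPM with wild type and 152 to 159.7 CPM with WWAA, overlapping, with a difference of -0.04 (adjusted p = 0.803). The targets Hey1, Dtx1 and Il2ra were under the filter on low counts: Hey1, a relative of Hes1, was at 0.424, 0.976 and 0.637 CPM with wild type and 0.170, 0 and 0.0909 CPM with WWAA, Dtx1 stayed at or under 0.433 CPM and Il2ra at or under 0.212 CPM. Nrarp was at 0 in all 9 libraries, where 3 counts would be 0.211 to 0.319 CPM.

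Of 26 tested Notch pathway components, which include receptors, ligands, gamma-secretase subunits and coactivators, 2 rose, Notch1 and Aph1b. The median was 0.05, and 1.26% of all genes tested rose. Aph1b, a subunit of gamma-secretase, differed by 0.39 (adjusted p = 0.041) and did not pass when any 1 of the 9 libraries was left out (adjusted p = 0.0537 to 0.154). Notch2 had 148 CPM with wild type and 143 CPM with WWAA and did not pass (0.05).

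Corepressors of RBPJ were among the higher genes. Spen, a large corepressor that binds RBPJ directly, was at 91.7, 91.6 and 104 CPM with wild type, 65.9, 60.9 and 63.4 CPM with WWAA and 74.8, 64.8 and 70.6 CPM with GFP. The wild-type libraries were the highest, by 0.60 over WWAA (SE 0.0668, adjusted p = 0.000268). L3mbtl3, which links RBPJ to a histone demethylase, was at 37.0, 36.3 and 35.6 CPM with wild type and 23.3, 24.2 and 25.5 CPM with WWAA, a difference of 0.58 (adjusted p = 0.00287). With Rbpj these were the 3 of 16 tested members of the list of RBPJ and its corepressors that rose; none fell and the median was 0.02. With the replicate block the same 3 rose and Rbbp8 fell. Without the replicate 3 libraries 5 of the list passed, with Tle3 higher and Rbbp8 lower. Calls rose over all genes tested too: higher calls went from 1.26% to 2.78% with the block and to 3.07% without the replicate 3 libraries. Lower calls went from 0.601% to 2.3% and to 2.56%. None of the 26 Polycomb subunits and other KYOT2 partners passed in either direction, and their differences ran from -0.15 to 0.15 (median 0.01).

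The Gimap genes rose as a family, which was chosen after its values were seen. They encode GTPases of lymphocytes that bear on T cell survival, and the 8 members in the count table lie next to each other on chromosome 6 in the order Gimap8, Gimap9, Gimap4, Gimap6, Gimap7, Gimap1, Gimap5 and Gimap3, per RefSeq. All 7 tested members rose, by 0.88 to 2.80 on the log2 scale. Gimap7 was at 41.6, 44.8 and 46.0 CPM with wild type, 4.85, 6.84 and 7.37 CPM with WWAA and 7.55, 5.31 and 5.34 CPM with GFP (2.80, SE 0.132, adjusted p = 2.48e-08). The wild type lay several-fold above both other groups, which overlapped each other.

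Gimap1, with 39.3, 38.7 and 34.6 CPM against 6.98, 7.36 and 5.18 CPM for WWAA, differed by 2.52, and Gimap8, with 14.1, 13.0 and 15.6 CPM against 2.38, 2.16 and 2.00 CPM, by 2.70. Gimap9 was the member with the highest level in the GFP cells (40.5, 38.1 and 42.5 CPM) and the smallest difference: 72.2, 82.1 and 82.95 CPM with wild type against 38.6, 44.05 and 47.1 CPM with WWAA (0.88). CPM values are not per length, so the order between members is not read as an order of molecules. Gimap4, Gimap5 and Gimap6 were under 5 CPM with wild type and differed by 2.61, 1.82 and 2.53. Gimap4 did not pass without wild type replicate 2 (highest adjusted p = 0.0621).

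Increases were also found for Gzmb and Cd28. Gzmb, the granule protease granzyme B, was at 7.73, 6.35 and 6.21 CPM with wild type, 0.426, 1.39 and 1.27 CPM with WWAA and 0.437, 1.06 and 0.706 CPM with GFP, and rose by 2.70 (SE 0.285, adjusted p = 0.000148). Of the 3 granzyme and perforin genes tested it was the only one that passed; Gzma (-0.32) and Gzmm (0.03) overlapped between the groups. Cd28, the costimulatory receptor, was at 55.2, 50.3 and 57.6 CPM with wild type, 31.9, 25.96 and 28.6 CPM with WWAA and 23.5, 22.9 and 21.4 CPM with GFP, and rose by 0.91 (SE 0.0802, adjusted p = 2.5e-05). The wild-type libraries lay above all WWAA libraries, and these above all GFP libraries, although WWAA minus GFP (0.35) did not pass (adjusted p = 0.283).

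Of 20 tested T cell activation and cytokine genes, 4 rose: Gzmb, Tnfrsf9, Pdcd1 and Fos, with none lower and a median of 0.25. Tnfrsf9, the receptor 4-1BB, stood at 272, 268 and 275 CPM against 183, 188 and 190 CPM (0.54, adjusted p = 1.36e-05), and Pdcd1, the inhibitory receptor PD-1, at 836.5, 827 and 857 CPM against 695, 689 and 708 CPM (0.27, adjusted p = 0.0045). Fos, a subunit of the AP-1 factor, differed by 0.47. With the replicate block 6 passed, with Junb and Nr4a1 added, and without the replicate 3 libraries 7, with Cd44 as well, all higher. Over all genes tested, higher calls went from 1.26% to 2.78% with the block and to 3.07% without the replicate 3 libraries. Of 19 tested T cell receptor and identity genes 1 rose, Cd28 (median 0.03); with the replicate block 3 passed, with Lcp2 higher and Thy1 lower.

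Chemokine receptors went both ways. Ccr2, the receptor for the monocyte chemoattractant CCL2, was at 1.17, 0.279 and 0.478 CPM with wild type, 3.07, 4.85 and 5.27 CPM with WWAA and 4.48, 3.45 and 4.55 CPM with GFP. It was the largest decrease with the wild type, -2.89 (SE 0.367, adjusted p = 0.000784), and it ran from -3.52 to -2.48 over the fits that leave out 1 library. Ccr8 rose by 0.56 (adjusted p = 0.0196) but did not pass without any 1 of wild type replicates 1, 2 and 3 or WWAA replicates 1 and 2 (highest adjusted p = 0.102). These were the 2 of 12 tested chemokine and homing receptors that passed (median -0.02), against 1.87% of all genes tested. Ncald, a calcium sensor, rose by 2.49 from 0.937 to 1.04 CPM with WWAA to 5.40 to 5.996 CPM with wild type. Ramp3, a partner of the calcitonin-like receptor, rose by 0.95 from 18.1 to 19.8 CPM to 34.4 to 37.8 CPM.

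Among 19 tested interferon response genes 1 rose, Ifih1, the sensor of double-stranded RNA, by 2.07 from 0.546 to 0.606 CPM to 2.30 to 2.63 CPM, and the list's median was 0.28 with 15 members above 0. The median was 0.14 without wild type replicate 2, 0.18 without wild type replicate 3 and 0.17 without WWAA replicate 3. With the replicate block 3 passed, with Igtp and Isg20, while higher calls over all genes tested went from 1.26% to 2.78%. Of 15 tested p53 targets and apoptosis genes 3 rose, Cdkn1a, Bcl2l11 (the cell-death gene BIM, 0.29) and Trp53inp1 (0.24), and the median was -0.01. Bcl2l11 did not pass without wild type replicate 1 or 2 or WWAA replicate 2 (highest adjusted p = 0.111), and Trp53inp1 did not pass in 7 of the 9 fits that leave out 1 library, with GFP replicate 3 and WWAA replicate 3 the exceptions (highest adjusted p = 0.159). Of 21 tested lysosome genes only Lgmn passed (median 0.03). Other genes of regulators among those called, picked after their values were seen, were Id2 (0.55) and Zeb2 (0.58), transcriptional regulators of effector T cells, and Stat3 (0.25) and Ifngr1 (0.40), a cytokine signal transducer and an interferon gamma receptor chain.

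The lower genes were small in size and held many that act in DNA replication. Of 24 tested mitosis and replication genes 8 fell, Cdc6, Ccne2, Mcm2, Mcm3, Mcm5, Mcm6, Pcna and Rrm2, none rose, and 23 of 24 lay below 0 (median -0.12). The count was 4 without wild type replicate 2 and 5 without wild type replicate 1. It was also 5 with the 6 KYOT2 libraries alone, where Ccne2, Pcna and Rrm2 did not pass, and 10 with the replicate block. Over all genes tested, lower calls were 0.601% with all libraries and no block. They were 0.308% with the 6 KYOT2 libraries alone and 2.3% with the block. Those that fell act at the start of replication and in S phase: CDC6 and the MCM proteins load and form the helicase, cyclin E2 starts S phase, PCNA is the polymerase clamp and RRM2 makes deoxynucleotides. The mitotic members of the list did not pass without the block when all libraries were used; Mki67, a marker of dividing cells, had 1129 CPM with wild type and 1324 CPM with WWAA (-0.23, adjusted p = 0.29). With the replicate block Mki67 (-0.22, adjusted p = 0.028) and Bub1, a kinase of the spindle checkpoint (-0.17, adjusted p = 0.0184), fell as well, and Bub1 also passed without the replicate 3 libraries.

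All 6 genes of the MCM helicase, Mcm2 to Mcm7, fell, by 0.22 to 0.36 on the log2 scale; the family was chosen after its values were seen. Mcm6 was at 307, 321 and 305 CPM with wild type, 376, 383 and 412 CPM with WWAA and 343, 334 and 348 CPM with GFP (-0.33, SE 0.0466, adjusted p = 0.00215). The 3 GFP libraries lay between the groups, and neither construct differed from GFP by the test (wild type -0.13, WWAA 0.19). Cdc6 was at 43.95, 46.1 and 44.5 CPM with wild type, 57.99, 59.02 and 58.4 CPM with WWAA and 53.2, 54.2 and 57.4 CPM with GFP, and fell by 0.38 against WWAA (adjusted p = 0.00146) and by 0.29 against GFP (adjusted p = 0.0149). Ccne2 fell by 0.36, Pcna by 0.23 and Rrm2 by 0.21; Chek1, the kinase of the replication checkpoint, fell by 0.47 and Rmi2, a partner of the BLM helicase, by 0.58. Other replication and chromatin-copying genes among the 67 were Cdc45 (-0.32), Lig1 (-0.35), Pole (-0.31), Rrm1 (-0.22), Dnmt1 (-0.31) and Uhrf1 (-0.26), picked after their values were seen. Chek1 did not pass without WWAA replicate 2 or wild type replicate 3, Ccne2 without wild type replicate 1 or 2, Mcm4 and Mcm5 without wild type replicate 2, and Rmi2 and Mcm7 each in 6 of the 9 fits, those without wild type replicates 1, 2 or 3 or WWAA replicates 1 or 2, and without WWAA replicate 3 for Rmi2 or GFP replicate 2 for Mcm7 (highest adjusted p = 0.176). Shares of cells in each phase were not measured, and fewer cells in S phase and less RNA per cell cannot be told apart in bulk libraries.

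**Figure D4:**
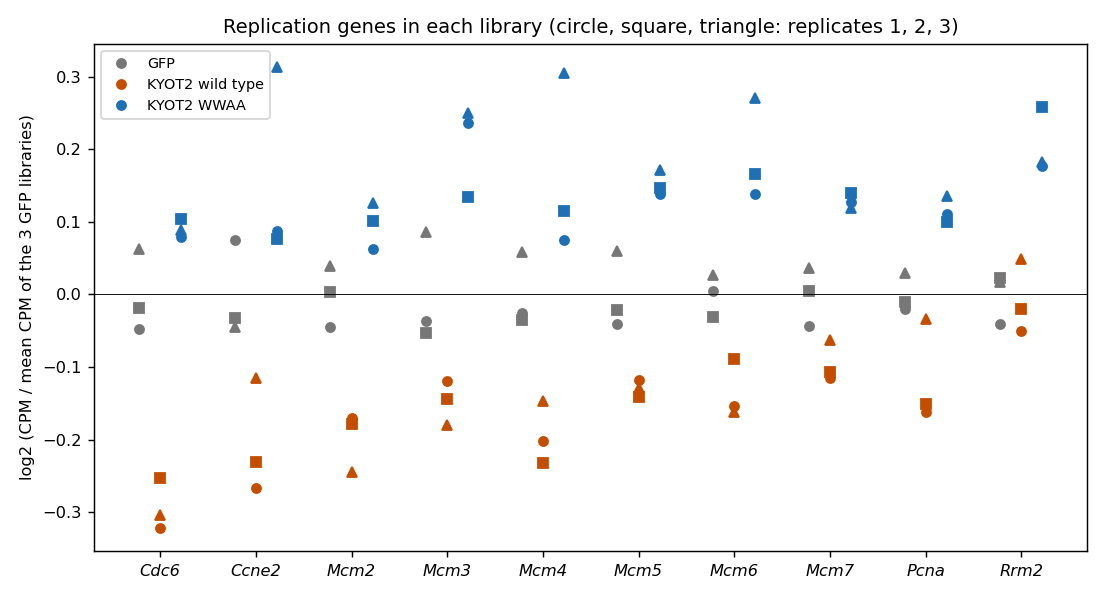
Log2 of the level in each library over the mean of the 3 GFP libraries (y axis) for 10 replication genes (x axis); circles, squares and triangles are replicates 1, 2 and 3. For all 10 genes the 3 wild-type points lie below the 3 WWAA points, with GFP between them or, for Rrm2, beside the wild type.

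The other named decreases were spread over uptake and surface genes. Tfrc, the transferrin receptor that takes up iron, was at 638, 643 and 684 CPM with wild type, 828, 862 and 896 CPM with WWAA and 720, 701 and 684.2 CPM with GFP. It fell by 0.40 (SE 0.046, adjusted p = 0.000366), and it was WWAA that differed from GFP (0.30, adjusted p = 0.0206) while wild type did not pass (-0.10). Slc2a1, the glucose transporter GLUT1, was at 191, 182 and 182.1 CPM with wild type, 250.8, 266 and 216 CPM with WWAA and 178, 172.5 and 175 CPM with GFP. It too fell by 0.40 (adjusted p = 0.00504), with WWAA above GFP by 0.48 (adjusted p = 0.00575) and wild type at 0.08.

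The remaining named decreases were 5830411N06Rik (-0.64), Lztfl1 (-0.43), Anxa1 (-0.39) and Spp1 (-0.38), where Lztfl1 regulates traffic to the cilium, Anxa1 is a phospholipid-binding protein and Spp1 is the secreted protein osteopontin. 5830411N06Rik did not pass without WWAA replicate 1 or 2 or wild type replicate 2 (highest adjusted p = 0.0831), Spp1 without wild type replicate 1 or 3 or WWAA replicate 1 (0.077) and Anxa1 without wild type or WWAA replicate 1 or 2 or GFP replicate 2 (0.144). Ly6c2, a surface protein under the level set for named genes, was at 0.53, 0.488 and 0.478 CPM with wild type and 1.53, 1.90 and 2.09 CPM with WWAA (-1.87).

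Metabolic lists held 1 decrease each in the fit without the block and more with it. Of 20 tested cholesterol synthesis genes Lss, lanosterol synthase, fell (-0.33, 296, 293 and 292 CPM against 359, 381.5 and 370.4 CPM) and 19 of 20 lay below 0 (median -0.11). With the replicate block 6 fell: Lss, Fdps, Hsd17b7, Idi1, Insig1 and Sqle. Of 21 tested glycolysis and hypoxia genes Slc2a1 fell (median -0.09), and with the block 7 did: Slc2a1, Ankrd37, Egln3, Hk2, Pfkl, Pgam1 and Tpi1. Without the replicate 3 libraries the counts were 6 and 9, and without WWAA replicate 3 alone 3 and 4. Over all genes tested, lower calls went from 0.601% to 2.30% with the block and to 2.56% without the replicate 3 libraries. Higher calls went from 1.26% to 2.78% and to 3.07%. No member passed among 19 unfolded protein and ATF4 response genes (median -0.03), 20 MYC and ribosome biogenesis genes (-0.04) or 22 actin cytoskeleton and SRF targets (0.05) tested, while with the replicate block 3 of the unfolded protein genes fell (Hsp90b1, Pdia4 and Sdf2l1) and 3 of the actin genes rose (Cnn2, Mkl1 and Zyx).

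The 10 genes that differed between WWAA and GFP were of mixed function. Adgrb2, an adhesion receptor, Ankrd37, a hypoxia-induced gene, Ccng2, a cyclin of resting cells, Hk2, the hexokinase that starts glycolysis, Sla, an adaptor that dampens T cell receptor signals, Slc2a1, Tfrc and Fhl1 were higher with WWAA, and Txnip and Gm15441 were lower. Adgrb2 stood at 0.109, 0.354 and 0.157 CPM with GFP, 2.21, 2.77 and 2.36 CPM with WWAA and 1.69, 1.81 and 1.19 CPM with wild type, so both constructs lay above GFP (3.47 and 2.83). Txnip, an inhibitor of thioredoxin and of glucose uptake, was at 3320, 3369 and 3499 CPM with GFP, 2761, 2708 and 2818 CPM with WWAA and 2853, 2841 and 2871 CPM with wild type, and was lower than GFP with both (-0.30 and -0.25). Gm15441 is antisense to Txnip, and whether counting used the strand is not given, so its reads and those of Txnip cannot be told apart. Of these 10 genes, Fhl1, Slc2a1, Tfrc and Ccng2 passed between wild type and WWAA; with the replicate block Ankrd37 (-0.36) and Hk2 (-0.20) passed as well.

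Promoter windows of RefSeq (build GRCm38.p6), which run from 250 bases before to 50 bases after a gene start, were searched for TGGGAA, the core of the RBPJ site, on both strands, and for the longer CGTGGGAA, which contains it. Of the 141 higher genes 106 had a window and 32 of these (30.2%) held TGGGAA, among them Fhl1, the gene of the construct. Of the 67 lower genes 55 had a window and 11 (20.0%) held it. The share was 25.9% of the 8339 tested genes with a window and 28.3% of all 27025 genes in the promoter table. A gene counted if any of its windows held a match. Counted per window, the shares were 25.2% for higher, 16.9% for lower and 22.6% for tested genes, and 25.6% of all windows. CGTGGGAA was in 3 of the 106 higher genes (2.83%), Rilpl2, Slc41a1 and Tmcc3, and in none of the 55 lower genes, against 1.38% of the tested genes and 0.862% of all genes in the promoter table. The windows of Rbpj and Tmcc3 are shown as members with a match, and those of Lgmn and Gimap7 as the largest increases, which hold none; capitals mark TGGGAA or its reverse complement TTCCCA. The windows lie at chr5:53590096-53590395 (+), chr10:94311699-94311998 (+), chr12:102439679-102439978 (-) and chr6:48718371-48718670 (+), and all are written 5′ to 3′ along the gene's strand.
Rbpj: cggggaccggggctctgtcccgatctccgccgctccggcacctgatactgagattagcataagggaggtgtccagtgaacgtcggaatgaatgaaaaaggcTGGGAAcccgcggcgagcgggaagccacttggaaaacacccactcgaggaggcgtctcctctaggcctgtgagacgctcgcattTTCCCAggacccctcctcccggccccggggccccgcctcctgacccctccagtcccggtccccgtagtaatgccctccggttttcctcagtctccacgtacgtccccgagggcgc
Tmcc3: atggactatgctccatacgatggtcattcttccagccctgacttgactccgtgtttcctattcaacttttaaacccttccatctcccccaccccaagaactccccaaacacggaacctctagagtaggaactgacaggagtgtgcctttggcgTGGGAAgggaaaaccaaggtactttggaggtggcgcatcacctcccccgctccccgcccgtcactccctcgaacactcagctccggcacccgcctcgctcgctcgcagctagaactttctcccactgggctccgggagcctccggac
Lgmn: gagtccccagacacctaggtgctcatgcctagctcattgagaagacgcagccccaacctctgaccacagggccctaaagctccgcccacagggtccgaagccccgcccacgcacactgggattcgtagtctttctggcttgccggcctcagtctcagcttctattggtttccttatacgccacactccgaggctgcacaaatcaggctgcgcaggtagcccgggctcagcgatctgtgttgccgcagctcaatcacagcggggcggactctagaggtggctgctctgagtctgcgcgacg
Gimap7: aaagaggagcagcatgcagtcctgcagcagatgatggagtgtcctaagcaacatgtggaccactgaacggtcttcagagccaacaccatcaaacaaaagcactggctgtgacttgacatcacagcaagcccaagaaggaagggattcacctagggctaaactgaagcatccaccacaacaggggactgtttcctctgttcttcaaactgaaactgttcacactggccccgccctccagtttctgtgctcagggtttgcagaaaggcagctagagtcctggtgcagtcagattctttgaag
In the Rbpj window the matches start 149 and 65 bases before the gene start, and in the Tmcc3 window the match starts 97 bases before it, with the letters cg just ahead of it completing CGTGGGAA. Tmcc3, a membrane protein of the endoplasmic reticulum, was at 4.34, 4.74 and 4.46 CPM with wild type and 2.895, 2.596 and 2.73 CPM with WWAA (0.72). A match is a description of the letters only, and a window without one says nothing of RBPJ binding outside it; Hes1 and Ncald were not in the promoter table.

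The genes that differed between wild type and WWAA were next looked up where RBPJ was removed. Rbpj itself was lower by the test in both, at -2.23 on the log2 scale in edited cells with Biocontrol and -1.85 in lines 2-12 and 2-14. With Biocontrol, depletion raised 21.7% and lowered 20.3% of 11315 genes tested, and in the lines 6.21% and 3.68% of 11566. Values in the lines are from the fit without the replicate block unless stated, so a gene that did not pass there is not read as unchanged. BioNICD1 in control cells raised 18.7% and lowered 14.2% of 11315; it shares its control libraries with the depletion in Biocontrol cells, so those values are given side by side. No library is shared with the KYOT2 experiment.

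Of the 141 genes higher with KYOT2 wild type, 135 were tested in Biocontrol cells, where depletion raised 68 (50.4%) and lowered 19 (14.1%), with a median of 0.37. Those 68 are 3.11% of the 2183 genes raised there among the genes tested in both. In the lines 131 were tested, 26 rose (19.8%, or 4.38% of the 594 raised there) and 9 fell (6.87%). BioNICD1 raised 64 of 135 (47.4%, or 3.52% of 1817) and lowered 14 (10.4%). All 3 shares of raised genes lie above the share of all genes raised in the same experiment. They were 37.8%, 12.3% and 37.5% for the 343 genes called higher without the replicate 3 libraries. For the 310 called higher with the replicate block in the KYOT2 fit they were 45.4%, 16.1% and 39.9%. With the replicate block in the fit of the lines, 51 of 131 rose (38.9%) and 21 fell (16%), against 18.3% and 18.5% of all genes tested there.

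Of the 67 genes lower with KYOT2 wild type, the 2 depletion experiments gave different pictures. In Biocontrol cells depletion raised 28 of 66 (42.4%, or 1.28% of 2183) and lowered 10 (15.2%, or 0.462% of 2164), and BioNICD1 raised 37 of 66 (56.1%) and lowered 6 (9.09%). In the lines 1 of 67 rose (1.49%) and 9 fell (13.4%, or 2.21% of 407). With the replicate block in the lines 3 rose and 25 fell (37.3%), against 18.3% and 18.5% of all genes tested there. Of all genes tested in KYOT2 and there, depletion in Biocontrol cells raised 20.8% and lowered 20.6%. BioNICD1 raised 17.3% and lowered 14.4%, and depletion in the lines without the block raised 5.44% and lowered 3.73%. With the replicate block in the KYOT2 fit the shares raised in Biocontrol cells and by BioNICD1 were 25.9% and 36.8%, and the share lowered in the lines was 9.02%. Without the replicate 3 libraries they were 26.25%, 34.75% and 8.04%. In both fits the share raised in Biocontrol cells lay nearer the 20.8% of all genes.

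Gene by gene, Lgmn was raised in each experiment: by 5.90 on depletion in Biocontrol cells, 5.83 in the lines and 2.35 with BioNICD1, beside 6.07 here. Hes1 was raised by 3.47, 5.71 and 2.94, and Ncald by 2.55, 1.63 and 3.11. In the lines the control means were low, 1.001 CPM for Hes1 (SD 1.12) and 1.36 CPM for Lgmn (SD 1.29). A level of 3 counts was 1.26 and 0.624 CPM in those control libraries, so the folds of both genes there rest on low counts. Notch1 was raised by 2.85, 1.74 and 7.61, where the last value includes reads of the BioNICD1 construct. Ifih1 was raised by 2.16, 3.44 and 3.23. Cdkn1a, also higher with KYOT2 wild type, was at 0.37, -0.17 and 0.12, and none of these values passed.

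The Gimap genes rose in the Biocontrol experiment, Gimap1 by 3.96, Gimap7 by 3.40 and Gimap8 by 3.74 on depletion and by 2.66, 2.77 and 3.63 with BioNICD1; in the lines they were too low to test, apart from Gimap9, which did not pass there (-0.24, adjusted p = 0.58). Spen rose by 0.60 and 0.96 on depletion and was at -0.05 with BioNICD1 (adjusted p = 0.78). L3mbtl3 rose by 0.32 in Biocontrol cells (adjusted p = 0.037), and its values in the lines (0.26) and with BioNICD1 (-0.01) did not pass.

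Other members differed between the experiments in direction or in whether they passed, with the lines fitted without the replicate block. Cd28, higher with KYOT2 wild type, fell by 1.58 on depletion in Biocontrol cells, with 0.52 in the lines and 0.12 with BioNICD1, neither of which passed. Ramp3 fell by 4.28 in the lines, and Tnfrsf9 rose by 2.15 in Biocontrol cells and fell by 1.06 in the lines. Gzmb rose by 5.41 in Biocontrol cells and by 6.95 with BioNICD1 but was at -0.95 in the lines (adjusted p = 0.21). Ccr2, lower with KYOT2 wild type, fell by 4.99 in Biocontrol cells and by 3.75 with BioNICD1, and its value in the lines lay on the same side without passing (-1.10, adjusted p = 0.15).

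Among the replication genes, which were lower with KYOT2 wild type, Cdc6 rose by 1.02 on depletion in Biocontrol cells and by 1.64 with BioNICD1, with 0.12 in the lines (adjusted p = 0.77). Mcm6 rose by 0.21 and 1.11 and was at -0.17 in the lines (adjusted p = 0.30), and Mcm5 rose by 0.84 and 1.04. Mcm2 and Mcm3 did not pass on depletion in Biocontrol cells (0.17 and 0.07, adjusted p = 0.18 and 0.78) or in the lines (-0.04 and -0.13) and rose with BioNICD1 (0.73 and 0.81); Mcm4 and Mcm7 rose in Biocontrol cells (0.65 and 0.62) and with BioNICD1 (1.18 and 1.19) and were at -0.10 and -0.24 in the lines, where neither passed. Lztfl1 fell in both depletion experiments, by 2.42 and 1.19, and was at -0.06 with BioNICD1 (adjusted p = 0.58). Tfrc rose with BioNICD1 (0.66), and its values on depletion, 0.32 and -0.29, did not pass.

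**Figure D5:**
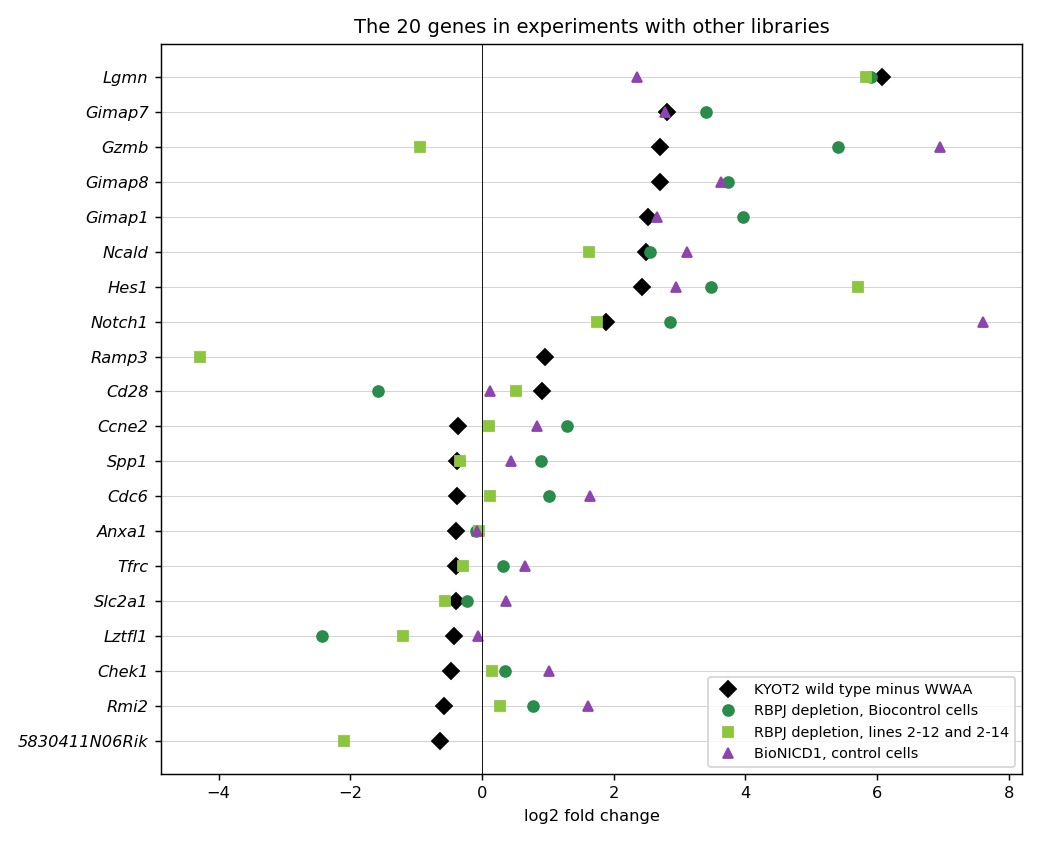
Log2 fold change (x axis) of the 20 named genes for KYOT2 wild type minus WWAA (diamonds), RBPJ depletion in Biocontrol cells (circles), RBPJ depletion in lines 2-12 and 2-14 (squares) and BioNICD1 in control cells (triangles); a gene not tested in an experiment has no point there. Lgmn, Ncald, Hes1 and Notch1 lie to the right of 0 in all 4, and the points of Cdc6, Ccne2, Chek1 and Rmi2 lie to the left for KYOT2 and to the right in the others, where not all of them passed.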

How the data were processed

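RNA-seq read counts per gene symbol (24391 genes) were deposited by the authors as raw whole-number counts. Per the submitters' processing notes, TopHat2 2.1.1, Picard, deepTools and build mm9 were used, with no roles given. The counting tool, annotation and strand setting are not given in the sources used here; per the labels' protocols the kit was TruSeq Stranded Total RNA with Ribo-Zero Gold or others. Of 65 columns, 27 were matched to samples by name and 38 were not used. Deposited region lists were not used, since no annotation of their build was at hand.

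A separate edgeR 4.0.16 model (R 4.3.3) was used for each experiment: filterByExpr (minimum count 10, total 15), TMM factors, prior count 0.125, 1 mean per group, quasi-likelihood F-tests, two-sided, Benjamini-Hochberg over all genes tested, threshold 0.05. The KYOT2 fit used all 9 libraries, and DESeq2 1.42.0 was an alternative. The method was tested on simulated data with independent libraries. These held no shift shared by replicate number, so that test does not cover the distance of the replicate 3 libraries. Intervals are at 95%. A level of 3 counts was 0.211 to 0.319 CPM, for counting error only.

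Deviations from the group means correlated between same-numbered wild type and WWAA libraries (r = 0.165 to 0.408 over 3 pairs) and less between others (-0.285 to 0.149). For replicates 1 and 2 the gap was small: 0.165 and 0.194 for the same number, 0.149 and 0.117 across the numbers. The values set replicate 3 apart but do not show that replicate 1 pairs with 1 and 2 with 2. The replicate block is an alternative, and gene values are from the fit without it unless stated. Blocked values are given for the counts of calls, for lists whose calls they change, and for some of the shares in other experiments. With GFP included, same-numbered pairs ran from 0.0349 to 0.408 and others up to 0.161, and GFP replicate 1 correlated with its number at 0.0349 and 0.0477, so the GFP contrasts are not shown to be paired. The use of the replicate number as a block rests on these values, not on the labels. In the BioNICD1 experiment same-numbered libraries correlated at -0.449 to 0.549, which does not pair them, and in the lines at 0.433 to 0.608. Gene values for the lines are nevertheless from the fit without the block. That fit called 1144 genes, against 4260 with the block.

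Named genes were the 10 largest differences in each direction with adjusted p under 0.05 and a mean of 5 CPM in the higher group, the genes Fhl1, Rbpj, Hes1, Hey1, Dtx1, Nrarp, Notch1, Il2ra, Myc and Lgmn, up to 4 passing members of each list by p, and the top marker of other cell types; others are said to be picked after seeing values. The members and lists were chosen with earlier results of these data known.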

Additional observations from a re-analysis of the deposited data

How the results depend on the processing

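Each setting changed 1 choice. Between wild type and WWAA, 208 genes were called (141 higher, 67 lower). DESeq2 gave 183, RLE factors 208 and leaving Rn45s out 207. Without a filter on low counts there were 395 (238 and 157), with the replicate block 567 (310 and 257), with only the 6 KYOT2 libraries 112 (78 and 34), with a fold of at least 1.5 added 59 (56 and 3) and without the replicate 3 libraries 629 (343 and 286). Leaving out 1 library gave 79 to 239 (59 to 148 higher, 20 to 91 lower). Wild type against GFP, 99 (90 and 9), became 262 (210 and 52) without the filter, 320 (241 and 79) with the replicate block, 465 (276 and 189) without the replicate 3 libraries and 50 to 239 (47 to 190 and 3 to 49) without 1 library. WWAA against GFP, 10 (8 and 2), became 22 (17 and 5) by DESeq2, 66 (34 and 32) without the filter, 67 (45 and 22) with the block, 279 (165 and 114) without the replicate 3 libraries and 6 to 18 (5 to 14 and 1 to 4) without 1 library. The depletion lines, 1144 (718 and 426), became 2671 (1509 and 1162) without the filter, 4260 (2120 and 2140) with the block and 379 to 2511 (236 to 1172 and 143 to 1339) without 1 library, where a lone library is assumed to vary like the others. Depletion with Biocontrol ran from 3666 to 5410 (1866 to 2943 and 1747 to 2467), and BioNICD1 from 2701 to 3262 (1606 to 1892 and 1041 to 1370), without 1 library. Fhl1 kept its call (0.64 to 0.70 without 1 library, 0.62 to 0.67 under the other settings). List medians near 0 changed sign for chemokine receptors (-0.0685 to 0.0796), p53 targets (-0.0277 to 0.0631) and Polycomb subunits (-0.00466 to 0.024) without 1 library. Rbpj did not pass with the 6 libraries alone (0.2968, adjusted p = 0.0705) or with the fold (0.2983), and ran from 0.25 to 0.37 without 1 library. For CGTGGGAA in place of TGGGAA the shares of genes with a match were 2.83% (higher), 0% (lower) and 1.38% (all tested). Over all settings the named genes gave 879 values on the same side of the threshold, 96 calls lost, 6 gained and 5 changes of sign, all 5 in genes that were not called: Acta2 at 0.1146 (without wild type replicate 2) and 0.1131 (without WWAA replicate 3), in a range of -0.2527 to 0.1146, and Gzmm at -0.03184, -0.07347 and -0.1049 (without WWAA replicate 1, wild type replicate 2 and WWAA replicate 2), in a range of -0.1049 to 0.2359. The block lost no named call and gained Ankrd37 and Hk2. The cause of these shifts was not tested. The shares of genes with a deposited RBPJ region within 1 kb or 5 kb of a gene start were not run. Depth limits the low genes: Hey1, Dtx1 and Il2ra were under the filter on low counts, so their differences were not called.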
